A study of Arabidopsis thaliana with 18 samples.

Results

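The 22-nt small RNAs of Arabidopsis thaliana seedlings that lack the Dicer-like enzymes DCL4 and DCL2 were compared with those of seedlings that lack DCL4 alone, both grown on abscisic acid (ABA). All libraries labelled dcl4-2 or dcl4-2 dcl2-1 on medium with 1 µM ABA were taken, 6 of the 18 libraries of the series. They make 2 groups of 3. The dcl4-2 seedlings carry the dcl4-2 allele, and the dcl4-2 dcl2-1 seedlings carry the same allele together with dcl2-1, so both groups lack DCL4 and the comparison asks what is lost with DCL2. Per the labels, all were whole seedlings 14 days old on MS medium with ABA. A general growth field of the same labels describes another harvest, the shoots of untreated plants moved to soil. The per-sample labels were followed. Other groups used were dcl4-2 and dcl4-2 dcl2-1 on MS medium without ABA, and the wild type Col-0 on ABA, each with 3 libraries. All 18 libraries, Col-0 on MS among them, entered the filter and the shared estimate of spread. Of Col-0 on MS, only the means of the nitrate reductase genes are given. The series calls the 3 libraries of a group biological replicates and does not say what was kept separate, so p-values measure the spread between these libraries, which may in part be technical.

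Plants cut double-stranded RNA into small interfering RNAs with Dicer-like enzymes. DCL4 makes mostly 21-nt and DCL2 mostly 22-nt species, and DCL2 acts on many of the same precursors when DCL4 is missing. A 22-nt RNA loaded into the effector protein AGO1 can recruit the polymerase RDR6 to its target, which then yields further double-stranded RNA, a process known as secondary siRNA production. ABA is the hormone of drought and osmotic stress, and it slows the growth of seedlings.

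Levels below are reads of 22 nt assigned to a locus, divided by the library's size factor (the divisor that the deposited values carry). The deposited table gives 1 mean per group, and the 3 libraries behind it were recovered from the fixed steps that 1 read makes in that mean. Libraries are called A, B and C by falling size factor, which ties them to no replicate number in the labels. Depth differed widely. Outside the nitrate reductase genes NIA1 and NIA2, the dcl4-2 ABA libraries held 390890, 245292 and 19915 reads in loci. Over all loci, the dcl4-2 dcl2-1 ABA libraries held 19697, 16818 and 3263 reads. In the shallowest of them 1 read was worth a level of 5.53, so a level of 0 there says little about a locus of low level. The remaining libraries of the series held between 983 and 52346 reads. DCL2 itself gave 2 reads in dcl4-2 on ABA and none in dcl4-2 dcl2-1, and DCL4 gave 5 reads and none, so the mutated genes do not check the labels. The labelled tissue was not checked against marker genes, since 22-nt reads do not measure their mRNA. In whole seedlings, fewer cells of a type and fewer small RNAs per cell cannot be told apart.

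The sequences that the results turn on are few. The mature miRNAs of the MIRNA loci described below are given 5′ to 3′ from RefSeq (TAIR10.1), with the seed, bases 2 to 8, in capitals. The first lines share a seed and belong to the miR165/miR166 family, which holds 5 of the 10 MIRNA loci that fell.
miR166e-3p (chromosome 5), also the mature form of MIR166f and MIR166g: uCGGACCAggcuucauucccc
miR165b (chromosome 4): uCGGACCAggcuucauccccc
miR396a-5p (chromosome 2): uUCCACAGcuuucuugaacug
miR167c-5p (chromosome 3): uAAGCUGCcagcaugaucuug
miR156a-5p (chromosome 2), also the 5p form of MIR156c: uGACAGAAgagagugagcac
miR156a-3p (chromosome 2): gCUCACUGcucuuucugucaga
miR173-5p (chromosome 3), a known 22-nt trigger of secondary siRNAs: uUCGCUUGcagagagaaaucac
The annotated forms of miR165b and miR166e-3p are 21 nt long, and miR173-5p and miR156a-3p are 22 nt long. Which arm the counted 22-nt reads came from was not analysed here.

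NIA1 and NIA2 encode the 2 nitrate reductases, the enzymes of the first step of nitrate assimilation. In dcl4-2 on ABA the authors' deposited group means were 152172 for NIA1 and 107247 for NIA2. Together they made 89.2% of the summed 22-nt level of that group. In dcl4-2 dcl2-1 on ABA the same means were 513 and 351, together 5.32% of the sum. The fall was 297-fold for NIA1 and 306-fold for NIA2. The authors' deposited table gives log2 fold changes of -8.22 for NIA1 and -8.26 for NIA2, with adjusted p-values of 4.09e-41 and 3.59e-33, ranks 1 and 2 in its test of dcl4-2 dcl2-1 against dcl4-2. The library values of these genes in dcl4-2 on ABA could not be recovered, so they are outside the fit used for all other loci.

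Reads of 22 nt from the nitrate reductase genes were still measurable in the double mutant. NIA1 stood at 526, 410 and 602 in dcl4-2 dcl2-1 on ABA, and at 73.1, 44.8 and 87.5 in Col-0 on ABA. NIA2 stood at 380, 268 and 404 against 61.6, 43.2 and 43.1. NIA1 was 7.49-fold and NIA2 7.11-fold above the wild type on ABA, and no library of one group overlapped the other. An exact permutation test of 3 against 3 libraries gave p = 0.1 for each gene, the smallest it can give. On MS, the authors' means for dcl4-2 were 7435 and 4013, or 44.1% of the sum, and for dcl4-2 dcl2-1 they were 138 and 99.3. For Col-0 on MS they were 508 and 397, above those of dcl4-2 dcl2-1 on MS, the reverse of the order on ABA. NIA1 was 20.5-fold and NIA2 26.7-fold higher in dcl4-2 on ABA than in dcl4-2 on MS. The ratio of NIA1 to NIA2 was 1.42 in dcl4-2 and 1.46 in dcl4-2 dcl2-1 on this hormone. The coding sequences of the 2 genes share no 22-nt stretch. Their longest common run (RefSeq TAIR10.1, chromosome 1, coding strand) is 20 nt, so a 22-nt read from a coding strand, placed without mismatch, belongs to only one of them.
Longest run shared by NIA1 and NIA2: aaggaacagaacatggtgaa

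Of the 32420 loci in the table, 5695 reached a level of 1 in at least 3 of the 18 libraries and were tested with limma on log2(level + 1), a scale that understates the change of low loci. After Benjamini-Hochberg adjustment over all of them, 350 loci (6.15%) were lower in dcl4-2 dcl2-1 than in dcl4-2 on ABA and 6 (0.105%) were higher, at an adjusted p under 0.05. Of the 5695, 664 reached that limit only with the dcl4-2 ABA libraries counted, and 47 of these were among the 350, so for these 47 the choice of what to test rests on the same high levels as the call. Of the other 5031 loci tested, 303 (6.02%) were lower. With no filter on low values, 73 of the 350 passed. Over all tested loci the log2 fold change had a median of -0.51. In the authors' deposited table, 165 of 2026 loci with an adjusted p (8.14%) were lower and 15 (0.74%) were higher. Of the 350 loci, 128 were lower in that table as well. Scaling sets how many loci pass. Summed over all loci without NIA1 and NIA2, the level was 30841, 24477 and 38531 in dcl4-2 and 14492, 14570 and 17031 in dcl4-2 dcl2-1, a ratio of 0.491 (exact permutation test, p = 0.1, the smallest it can give). When the summed level of MIRNA loci was made equal in all libraries, that ratio was 0.908, the median log2 fold change moved by 0.39 to -0.13, and 12 loci were lower and 1 higher. When each library was scaled to the same total outside NIA1 and NIA2, 22 were lower and 5 higher. All 350 kept a negative sign under each scaling tried.

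**Figure D1:**
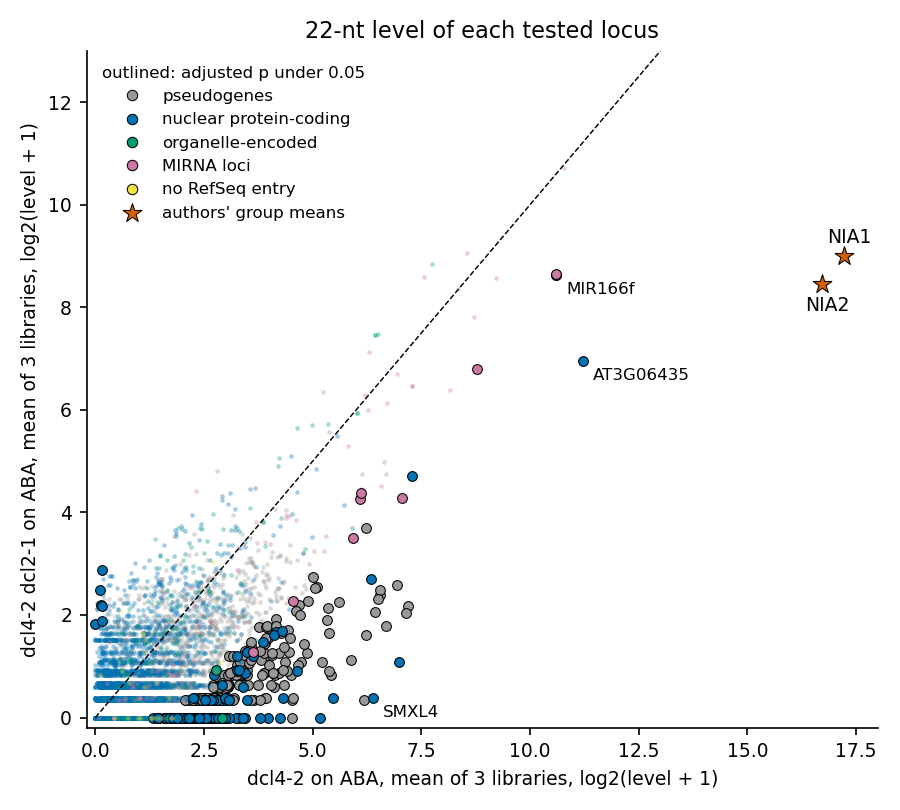
Mean 22-nt level of each tested locus in dcl4-2 on ABA (x) and dcl4-2 dcl2-1 on ABA (y), both as log2(level + 1), with loci past an adjusted p of 0.05 outlined and the dashed line at equal levels. NIA1 and NIA2 stand far to the right of all other loci, and AT3G06435 and MIR166f are among the most abundant of the others that fell.

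Beside these genes, 12 loci fell under every scaling tried. They were 7 protein-coding genes and 5 pseudogenes. For 11 of them the call also held with each of the 6 libraries left out. The exception, AT2G03500, drops out of testing when a dcl4-2 ABA library is left out, since it had reads in 3 of the 18 libraries and testing asks for 3. AT2G03500, BGLU29 and DEG14 were tested only through the dcl4-2 ABA libraries, so their p-values are conditional on high levels there.

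The most abundant was AT3G06435 on chromosome 3, an uncharacterized protein-coding gene that overlaps AT3G06436 on the opposite strand. Its level was 2033, 1705 and 3341 in dcl4-2 and 117, 146 and 105 in dcl4-2 dcl2-1. Every dcl4-2 library lay above every library of the double mutant, as at all 350 lower loci. The log2 fold change was -4.21 ± 0.40 (SE; limma, adjusted p = 1.82e-14), a 19.3-fold fall. Of its 22-mers, 68.5% occur more than once in the genome, so its reads may be shared with other places. In Col-0 on ABA the level was 1441 ± 94.2 (SD, n = 3), and the double mutant was lower than the wild type as well (log2 fold change -3.56, limma adjusted p = 8.08e-11).

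SMXL4, on chromosome 4, encodes a member of the SMAX1-LIKE family, whose members SMXL4 and SMXL5 act in the formation of phloem. Its 22-nt level was 28.6, 77.6 and 141 in dcl4-2 on ABA. In dcl4-2 dcl2-1 it was 0, 0.907 and 0, which is 1 read in all. The log2 fold change was -5.80 ± 0.79 (limma, adjusted p = 1.1e-07), with adjusted p-values from 1.02e-10 to 0.00177 over the alternatives. SMXL5 stood at 30.1, 24.9 and 7.74 in dcl4-2 and 0.782, 3.63 and 5.53 in the double mutant. The fall of SMXL5 did not pass the test (log2 fold change -2.34 ± 0.86, limma adjusted p = 0.0789). The coding sequences of the pair share no run longer than 15 nt.
Longest run shared by SMXL4 and SMXL5 (RefSeq TAIR10.1, chromosomes 4 and 5): atgagagaagctgga

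AT2G03500, on chromosome 2, is EARLY FLOWERING MYB PROTEIN (EFM), a MYB-type transcription factor that represses flowering. Its level was 29.1, 23.9 and 52.2 in dcl4-2 on ABA. None of the other 15 libraries of the series held a read of it. Against 3 reads over the whole dcl4-2 dcl2-1 ABA group, the level in dcl4-2 was at least 29.96-fold higher. The log2 fold change was -5.09 ± 0.60 (limma, adjusted p = 6.31e-10). The locus passed the filter only through the group in which it was then called higher, which limits what this p-value shows. With no filter the limma adjusted p was 1.37e-07. In the authors' deposited table its adjusted p is 0.428, so the call also depends on the test used.

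ADC2, the arginine decarboxylase of polyamine synthesis, stood at 20.5, 324 and 31.0 in dcl4-2 and 1.56, 1.81 and 0 in dcl4-2 dcl2-1. Library B was more than 10 times above the other libraries of its group, and 61 of the gene's 22-mers are shared with ADC1. The fall passed with and without library B (log2 fold change -4.97 ± 0.82, limma adjusted p = 2.42e-05; adjusted p between 3.35e-06 and 0.00511 with each library left out). BGLU29, a beta-glucosidase, stood at 21.0, 21.1 and 11.6 against no read in the double mutant, at least 15.3-fold higher (log2 fold change -4.19 ± 0.61, limma adjusted p = 7.7e-07). DEG14, a trypsin-family protease named here after its values were seen, stood at 8.05, 3.99 and 17.4 against 0 (log2 fold change -3.23 ± 0.60, limma adjusted p = 0.000175).

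AT5G43740 and its neighbour AT5G43730 encode disease resistance proteins of the CC-NBS-LRR class, the intracellular immune receptors of plants. AT5G43740 stood at 38.1, 29.5 and 61.9 in dcl4-2 and at 0, 0.907 and 0 in dcl4-2 dcl2-1 (log2 fold change -5.09 ± 0.81, limma adjusted p = 1.04e-05). AT5G43730 stood at 18.4, 13.4 and 25.2 against 0, 0.907 and 0 (log2 fold change -3.97 ± 0.73, limma adjusted p = 0.000154; 0.0534 with MIRNA sums made equal). The pair share 645 of their 22-mers, and AT1G51480 shares 327 with AT5G43740, so part of these reads cannot be told apart and the calls may rest partly on the same reads. Of 8 such genes listed, 3 were tested and all 3 fell, where 6.15% of all tested loci did, AT1G51480 being the third (limma adjusted p = 0.0068; 0.0612 without dcl4-2 library C), with a median log2 fold change of -3.97 against -0.51 over all tested loci.

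**Figure D2:**
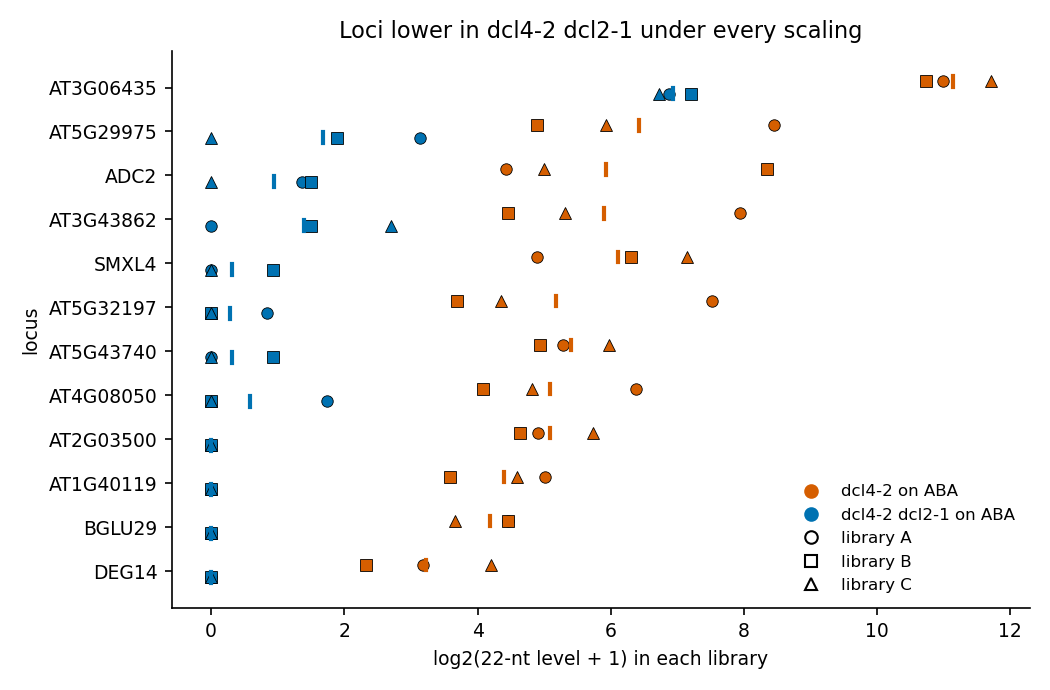
Level of the 12 loci that were lower under every scaling, as log2(level + 1) in each library (orange, dcl4-2 on ABA; blue, dcl4-2 dcl2-1 on ABA; circle, square and triangle, libraries A, B and C; bar, mean). In every row the 3 orange symbols lie to the right of the 3 blue ones, as at all 350 lower loci. Among the pseudogenes library A of dcl4-2 lies to the right of B and C.

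Pseudogenes made up most of the loci that fell. In Arabidopsis this annotation class holds many remnants of transposable elements, which are a main source of siRNAs in plants. Of 2315 tested, 249 fell (10.8%, against 6.15% of all loci) and none rose (6 at an unadjusted p under 0.05, 1 with voom weights), with a median log2 fold change of -0.97. Of 184 transcribed pseudogenes, 12 fell (6.52%, near the share of all loci). The summed level of pseudogenes was 11987, 6437 and 11553 in dcl4-2 and 2803, 2336 and 3709 in dcl4-2 dcl2-1, a ratio of 0.295 (exact permutation test, p = 0.1, the smallest it can give). With MIRNA sums made equal, 5 of the class fell and its median was -0.49, against -0.13 over all loci.

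Of the 261 pseudogenes of both kinds that fell, library C of dcl4-2 was the highest of its group at 174, library A at 82 and library B at 5. The summed level of the 261 was nevertheless highest in library A, at 5525, against 1513 in B and 3374 in C. Library A was the highest at each of the loci named next. AT5G29975 on chromosome 5 stood at 349, 28.6 and 60.0 in dcl4-2 and 7.82, 2.72 and 0 in the double mutant (log2 fold change -4.75 ± 0.84, limma adjusted p = 8.15e-05). AT5G32197 stood at 182, 11.9 and 19.4 against 0.782, 0 and 0 (limma adjusted p = 4.23e-05). AT3G43862 and AT4G08050 had the same shape, with 246, 20.9 and 38.7 and with 82.3, 15.97 and 27.1 in dcl4-2. AT1G40119 was more even, at 31.4, 11.0 and 23.2, and had no read in the double mutant. In each of these 5 the lowest dcl4-2 library lay above the highest of the double mutant. The same held at all 350 lower loci, so it does not set these apart. Among the 261, 26 were more than 5 times higher in library A than in library B, against 85 of the 2499 tested. Without library A, 87 of the 350 lower loci still passed, and without library C, the shallowest, 67 did. Without dcl4-2 dcl2-1 libraries A, B and C, 195, 154 and 104 did.

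Repeated sequence went with the pseudogenes that fell. In the median, 60.8% of the 22-mers of those that fell occur more than once in the genome, against 43.4% in the tested pseudogenes that were not called. In protein-coding genes the medians were 2.61% and 1.33%. The sources used here do not give how reads that match several places were handled, and reads of repeated loci may be counted at more than one of them.

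**Figure D3:**
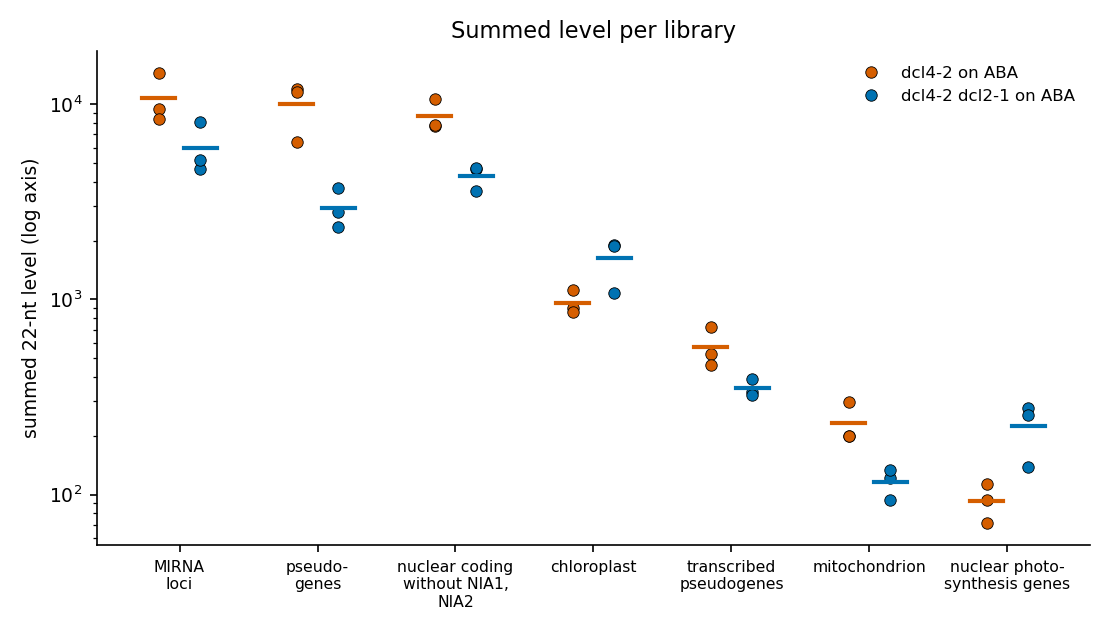
Summed 22-nt level of each annotation class, and of 30 nuclear photosynthesis genes, in each library (points) with the group mean (bar), on a log axis. The MIRNA, pseudogene and protein-coding sums lie lower in dcl4-2 dcl2-1, the photosynthesis sums lie higher on the deposited scaling, and the chloroplast sums have a higher mean with overlapping libraries.

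Of the pseudogenes of largest change, AT5G31719, AT2G09187, AT3G33067 and AT5G32404 also fell (log2 fold changes -4.57, -4.33, -4.33 and -4.33) and did not pass with MIRNA sums made equal (limma adjusted p from 0.0603 to 0.0762). Library A of dcl4-2 was the highest at all 4.

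Protein-coding genes made the next group, with 77 lower and 6 higher of 2932 tested (2.63% lower, against 6.15% of all loci). With voom weights the balance turned, to 40 lower and 127 higher. The summed level of the 77 was 2801, 2672 and 4609 in dcl4-2 and 182, 206 and 138 in dcl4-2 dcl2-1, of which AT3G06435 is the larger part. AT3G44580, also among the 15 largest falls, stood at 80.0, 62.6 and 98.7 against 10.2, 6.35 and 0 (log2 fold change -4.20 ± 0.81, limma adjusted p = 0.000287; 0.081 with MIRNA sums made equal). It shares 93 of its 22-mers with its neighbour AT3G44570. Most of the rest were of low level. Across all 350 lower loci the median level in dcl4-2 was 6.52, 234 had a mean under 10, and 144 had no read in any double mutant library.

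Genes that encode pentatricopeptide repeat (PPR) proteins, which process organelle RNA, are a known source of secondary siRNAs. Of 21 listed, 17 were tested and 7 fell (41.2%, against 6.15% of all tested loci), with a median log2 fold change of -1.62, against -0.51 over all. Their summed level was 48.6, 42.0 and 105 in dcl4-2 and 5.47, 0 and 0 in the double mutant. RPF3 stood at 5.13, 2.50 and 13.5 against 0 (log2 fold change -2.76 ± 0.74, limma adjusted p = 0.0162), and AT1G63130 at 4.1, 5.89 and 15.5 against 0. Both had lower levels in the double mutant than in Col-0 on ABA too, by log2 fold changes of -4.82 and -4.88 (limma adjusted p = 3.23e-06 and 2.7e-06). AT1G62910, AT1G63150 and the transcribed pseudogene AT1G62860 fell as well. AT1G63400, at 4.1, 4.19 and 5.8 against 0.782, 0 and 0, did not pass (limma adjusted p = 0.0597). In Col-0 on ABA that gene stood at 146 ± 90.5 (SD, n = 3), far above either mutant. These genes share sequence (RPF3 and AT1G62910 have 639 common 22-mers), so their reads cannot be fully assigned. None of the 7 passed with MIRNA sums made equal, and without dcl4-2 library C the 5 named here had limma adjusted p-values of 0.0532 to 0.184. RPF3 was also lost without library A.

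Class III HD-ZIP genes, the targets of miR165 and miR166 that set leaf polarity, gave low levels. PHB stood at 5.44, 3.99 and 7.74 in dcl4-2 and had no read in the double mutant (log2 fold change -2.71 ± 0.76, limma adjusted p = 0.0207). It passed without library B of dcl4-2 and not without any of the other 5 libraries (highest adjusted p 0.132). REV and PHV also had no read in the double mutant and stood at 2.60, 0.898 and 5.8 and at 1.34, 1.5 and 1.94 in dcl4-2, but did not pass. Thus 1 of 4 tested fell, where 6.15% of all tested loci did, and PHB was also lower in the double mutant on MS (log2 fold change -2.86, limma adjusted p = 0.0444).

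In the silencing machinery, 4 of 20 genes were tested and 2 fell, where 6.15% of all tested loci did. AGO1, the main effector of miRNAs, stood at 4.26, 4.29 and 1.94 against 0 (log2 fold change -2.12 ± 0.63, limma adjusted p = 0.0316). AGO2, an antiviral effector, stood at 3.16, 3.29 and 7.74 against 0 (limma adjusted p = 0.0273). AGO1 did not pass with any of the 6 libraries left out (limma adjusted p from 0.0607 to 0.111), and AGO2 passed only without library B of dcl4-2 (highest adjusted p 0.174). DCL1, the Dicer of miRNAs, stood at 1.5, 2.3 and 0 against 0 and did not pass.

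Of 16 other genes of nitrogen uptake and assimilation, 10 were tested and 3 fell, where 6.15% of all tested loci did. With voom weights 2 fell and 1 rose. GLT1, the NADH-dependent glutamate synthase, stood at 11.7, 13.6 and 15.5 against 0.782, 4.53 and 0 (log2 fold change -2.76 ± 0.80, limma adjusted p = 0.0258). NIR1, the nitrite reductase that follows nitrate reductase, stood at 9.07, 10.9 and 5.8 against 3.91, 0 and 0 (limma adjusted p = 0.0322). The nitrate transporter NRT1.1 stood at 1.74, 2.69 and 3.87 against 0 (limma adjusted p = 0.0368). NRT1.1 was tested only through the dcl4-2 ABA libraries, and with single libraries left out it never passed (limma adjusted p from 0.063 to 0.161). GLT1 passed only without dcl4-2 dcl2-1 library B and NIR1 only without library A of that group (highest adjusted p 0.134 and 0.138). GLU1 and GS2, the glutamate synthase and glutamine synthetase of the chloroplast, did not pass. GLU1 stood at 5.76, 4.39 and 1.94 in dcl4-2 and 6.25, 3.63 and 5.53 in dcl4-2 dcl2-1. The sums of the list were 41.8, 48.2 and 38.7 against 29.7, 21.8 and 16.6.

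Among auxin signalling genes targeted by miRNAs or ta-siRNAs, 1 of 7 tested fell, where 6.15% of all tested loci did. It was ARF4, a repressor-type auxin response factor, with 2.21, 1.9 and 3.87 against 0 (limma adjusted p = 0.0384). ARF4 did not pass with any library left out (limma adjusted p from 0.0527 to 0.163). The auxin receptor gene AFB3 was close to the threshold (limma adjusted p = 0.0506). TIC, a clock regulator, fell from 16.3, 4.69 and 5.8 to 0, 2.72 and 0 (limma adjusted p = 0.0456), but not without library A or C of either genotype (highest adjusted p 0.178). BAM3, a receptor kinase of the phloem, stood at 14.4, 3.99 and 0 against 0, 2.72 and 0 and did not pass, nor did GUN5, a subunit of magnesium chelatase. Of the HD-ZIP, silencing, nitrogen, auxin and clock genes named here, none passed with MIRNA sums made equal. In the authors' deposited test PHB, AGO1, AGO2, NIR1 and TIC did not pass (adjusted p = 0.0607, 0.15, 0.062, 0.137 and 0.238). GLT1 passed there (adjusted p = 0.03), and NRT1.1 and ARF4 had no adjusted p.

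In the ABA pathway itself none of 6 tested genes of 17 listed passed, 0 of them at an unadjusted p under 0.05 and 0 with voom weights, and the list's median was -0.55, close to that of all loci. RD29A (LTI78) stood at 1.5, 3.19 and 1.94 in dcl4-2 and 0, 1.81 and 0 in the double mutant. None of 5 tested dehydrin genes, which encode proteins that protect dehydrated cells, passed either (0 at an unadjusted p under 0.05, 0 with voom weights), with a median of -0.18. Of the anthocyanin MYB genes only PAP1 was tested, and it did not pass.

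MIRNA loci gave a large share of the 22-nt reads outside the nitrate reductases. Of 94 tested, 10 fell (10.6%, against 6.15% of all loci) and none rose (3 higher at an unadjusted p under 0.05). The 10 include MIR166e, MIR166f and MIR166g, of nearly the same reads, so this share may count the same signal more than once. With voom weights 15 were lower and 4 higher. The sum of the class was 9452, 8433 and 14412 in dcl4-2 and 4656, 5164 and 8131 in dcl4-2 dcl2-1. With MIRNA sums made equal, which removes this difference by construction, none of the class fell. With equal totals outside NIA1 and NIA2, which does not fix the MIRNA sum, none fell either. MIR166f stood at 1254, 1163 and 2210 against 312, 327 and 547 (log2 fold change -1.95 ± 0.37, limma adjusted p = 0.000263). MIR166e and MIR166g had nearly the same values in every library, and they have the identical mature sequence shown above, so reads of the mature form cannot be told apart. MIR165b, which differs from them in the 3′ part, stood at 348, 304 and 652 against 49.3, 53.5 and 227 (limma adjusted p = 0.0159). MIR396a, which targets growth-regulating factors, fell from 99.4, 94.5 and 199 to 24.2, 14.5 and 16.6 (log2 fold change -2.71 ± 0.76, limma adjusted p = 0.0211). Without library C of dcl4-2, MIR165b and MIR396a did not pass, nor did MIR165b without dcl4-2 dcl2-1 libraries A or B, or MIR396a without dcl4-2 library A or dcl4-2 dcl2-1 libraries B or C (highest limma adjusted p 0.16 and 0.163). MIR166f passed without each library (highest 0.0289). With equal totals outside NIA1 and NIA2, MIR166f, MIR165b and MIR396a did not pass (limma adjusted p = 0.252, 0.49 and 0.486). MIR173, the trigger of 2 ta-siRNA families, stood at 32.2, 32.5 and 23.2 against 6.25, 3.63 and 11.1 and did not pass (limma adjusted p = 0.104). In the authors' deposited test MIR173, MIR166f and MIR396a were lower (adjusted p = 0.00876, 0.0137 and 6.68e-06), and MIR165b did not pass (adjusted p = 0.0503).

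Other abundant MIRNA loci did not pass on the deposited scaling. MIR319c stood at 1516, 1326 and 2442 in dcl4-2 and 762, 1469 and 2830 in dcl4-2 dcl2-1, which overlap. MIR162b, whose miRNA targets DCL1, stood at 350, 364 and 404 against 448, 479 and 658. With equal totals outside NIA1 and NIA2 it passed as higher (limma adjusted p = 0.0103). MIR168a, whose miRNA targets AGO1, stood at 68.3, 61.6 and 101 against 34.4, 38.1 and 116. MIR403, whose miRNA targets AGO2, stood at 636, 529 and 602 against 473, 371 and 287. The TAS loci were not analysed here.

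The 6 loci that rose were protein-coding and of low level. AT3G15450 stood at 0.237, 0 and 0 in dcl4-2 and 4.69, 3.63 and 5.53 in the double mutant (log2 fold change 2.37 ± 0.76, limma adjusted p = 0.0451). FRO2, the iron reductase of the root, stood at 0.0789, 0.2 and 0 against 1.56, 3.63 and 5.53. LIN2, a coproporphyrinogen oxidase of chlorophyll and haem synthesis, stood at 0.158, 0.2 and 0 against 0.782, 1.81 and 16.6, which is 1, 2 and 3 reads. STN7, a thylakoid kinase, and the F-box gene AT5G47300 rose by log2 fold changes of 1.53 and 1.96. AT1G32140, at 0 against 3.13, 4.53 and 0, passed with overlapping libraries. These values rest on a few reads per library. Without any one of the 3 dcl4-2 libraries no locus rose, and none of the 6 passed with MIRNA sums made equal or with equal totals outside NIA1 and NIA2.

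Photosynthesis genes did not share the general fall. Of 30 nuclear genes listed, all were tested and none passed in either direction (6 higher at an unadjusted p under 0.05, 5 with voom weights). Their median log2 fold change was 0.82, against -0.51 over all tested loci. Their sum was 94.0, 113 and 71.6 in dcl4-2 and 277, 257 and 138 in dcl4-2 dcl2-1 (exact permutation test, p = 0.1, the smallest it can give). The light-harvesting gene CAB1 stood at 11.1, 16.7 and 7.74 against 29.7, 28.1 and 5.53, and the rubisco activase gene RCA at 4.5, 7.48 and 7.74 against 14.9, 20.0 and 22.1. The median of the list stayed positive under all scalings tried, from 0.34 to 1.52. Chloroplast-encoded loci summed to 901, 1119 and 863 against 1908, 1884 and 1078 (exact permutation test, p = 0.2). Their median of 0.20 turned to -0.26 when chloroplast sums were made equal, as that scaling forces. The chloroplast libraries of the groups overlapped. ATCG00020, the gene of a photosystem II core protein, stood at 206, 245 and 186 against 532, 563 and 276 and did not pass. Of 83 chloroplast-encoded loci tested, 1 fell (1.2%, against 6.15% of all tested loci). It was ATCG00640, at 5.13, 6.79 and 7.74 against 0 (log2 fold change -2.90, limma adjusted p = 0.00867; 0.0573 without dcl4-2 library C). Mitochondrion-encoded loci summed to 200, 200 and 298 against 121, 134 and 94.0. Of 67 tested, 1 fell (1.49%, against 6.15% of all tested loci). This was ATMG00513, at 5.44, 4.29 and 7.74 against 0, 2.72 and 0 (log2 fold change -2.11, limma adjusted p = 0.0478). It passed only without library B of dcl4-2 dcl2-1 when single libraries were left out (highest adjusted p 0.198), and neither locus passed with MIRNA sums made equal.

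On MS the same genotypes differed at fewer loci: 30 were lower (0.527%) and 4 higher (0.0702%) in dcl4-2 dcl2-1. The counts on the 2 media are not at equal depth. The MS libraries held 22796, 12553 and 16256 reads in dcl4-2 and 13847, 14019 and 983 in dcl4-2 dcl2-1. In the last of these, 1 read was worth a level of 10.5. The filter also took in 664 loci only through the dcl4-2 ABA libraries. What depth adds to the gap in counts was not tested. Of those 30, 22 were also lower on ABA, 73.3% of the MS list and 6.29% of the ABA list. SMXL4 is one of them, at 18.1, 16.5 and 19.5 in dcl4-2 on MS and without reads in dcl4-2 dcl2-1 on MS (log2 fold change -4.25, limma adjusted p = 0.000371). Whether the genotype difference itself departs between media was tested directly.

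The genotype difference on ABA departed from that on MS at 12 loci, 11 more negative (0.193% of those tested) and 1 more positive (0.0176%). ADC2 stood at 1.2, 6.01 and 5.84 in dcl4-2 on MS and at 0.913, 2.02 and 10.5 in dcl4-2 dcl2-1 on MS (difference between media -4.75 ± 1.17 on the log2 scale, limma adjusted p = 0.0448), and it passed in 1 of the 6 fits that left out a single library. EFM and BGLU29, with no read in either mutant on MS, had differences of -5.09 ± 0.85 and -4.19 ± 0.86 (limma adjusted p = 0.000198 and 0.00359). Both were tested only through the dcl4-2 ABA libraries, so for them this comparison is not independent of the high levels that brought them into the test. For SMXL4 the difference between media was -1.56 ± 1.12 and for AT3G06435 it was -1.64 ± 0.56 (limma adjusted p = 0.62 and 0.289), neither past the threshold.

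Most of the 12 were MIRNA loci, 8 in all, with group means in opposite order on the 2 media. MIR156a, whose miRNA keeps plants juvenile, stood at 75.3, 60.9 and 63.9 in dcl4-2 and 33.6, 15.4 and 5.53 in the double mutant on ABA. On MS it stood at 18.1, 30.1 and 25.3 against 237, 315 and 157. MIR166f on MS stood at 625, 113 and 951 in dcl4-2 and 753, 692 and 703 in the double mutant. MIR399a, whose miRNA acts in phosphate starvation, went the other way, with 151, 175 and 240 against 259, 254 and 647 on ABA and 330, 218 and 757 against 134, 86.8 and 115 on MS. For MIR156a, MIR156c, MIR399a and the MIR166 loci, several sets of reads give the deposited mean of dcl4-2 dcl2-1 on MS, and the most even set was used. With the least even set, 3 loci passed, EFM, BGLU29 and AT4G20830, and none of the MIRNA loci did. Of these 3, EFM passed with MIRNA sums made equal (limma adjusted p = 0.0171), and BGLU29 and AT4G20830 did not (limma adjusted p = 0.199 and 0.0768).

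**Figure D4:**
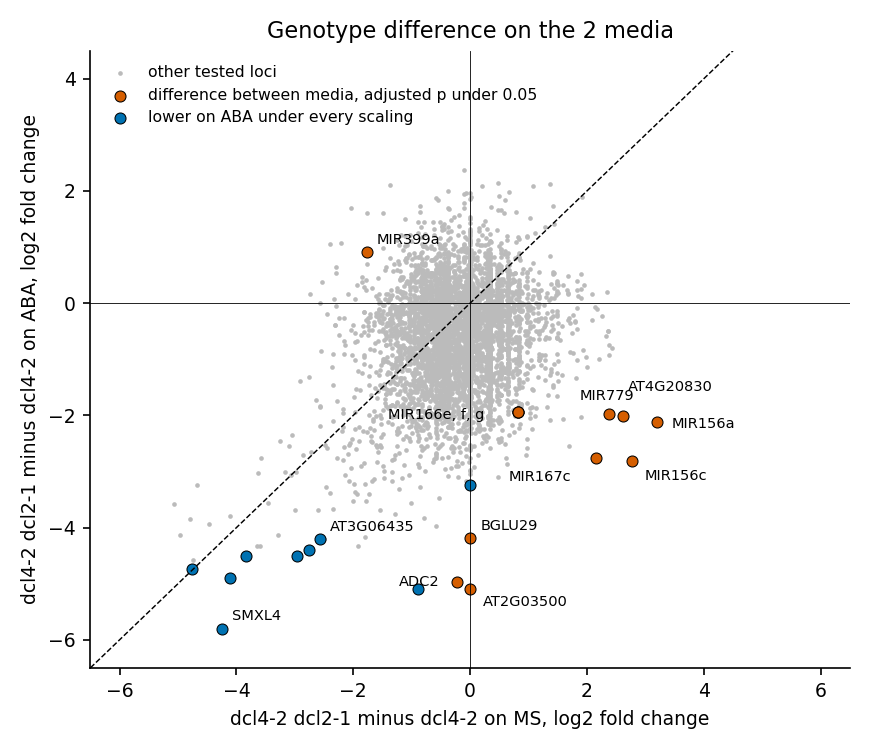
Log2 fold change of dcl4-2 dcl2-1 over dcl4-2 on MS (x) and on ABA (y) for each tested locus. Orange marks the 12 loci whose difference departed between media, blue the other loci lower on ABA under every scaling, and the dashed line equal differences; EFM is labelled AT2G03500, and it lies with BGLU29 at 0 on MS.

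Against the wild type on ABA, which shares the dcl4-2 dcl2-1 libraries with the comparison above, 35 loci were lower in dcl4-2 dcl2-1 (0.615%) and 0 (0%) higher by limma (59 at an unadjusted p under 0.05, 0 with voom weights). Of the 21 PPR genes, 11 were among the 35. SMXL4 had 1 read in the Col-0 libraries, where the level was 0.457, 0 and 0, near that of the double mutant. AT5G43740 lay between the mutants in Col-0, at 8.29 ± 5.85 (SD, n = 3), and BGLU29 at 1.32 ± 0.865 (SD, n = 3).

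**Figure D5:**
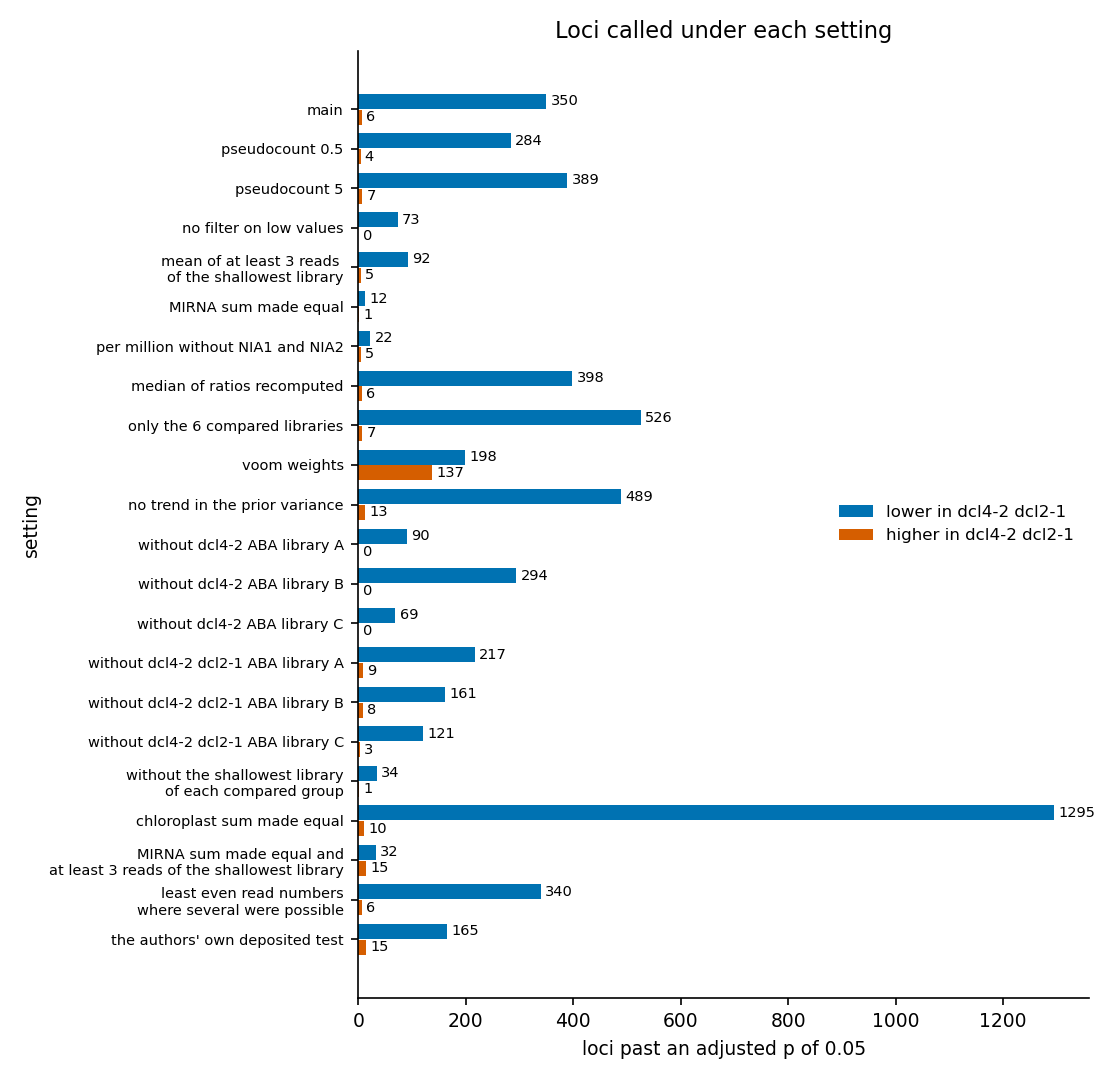
Number of loci lower (blue) and higher (orange) in dcl4-2 dcl2-1 on ABA under each way of scaling, filtering or testing, and with each library left out, where main marks the counts as reported. The lower count runs from 12 with MIRNA sums made equal to 1295 with chloroplast sums made equal, and with voom weights 137 loci were higher.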

How the data were processed

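Small RNA libraries of 18 seedling samples (3 each of 3 genotypes on 2 media) were sequenced from total RNA. The deposited table holds, per locus, a signal of 22-nt reads headed TPM, as 1 mean per group. Its low values are sums of 3 fixed steps, so per the deposited values the authors divided whole read counts by a size factor per library and averaged over 3 libraries. The size factors of 12 of 18 libraries equal the ratio of 1 locus to its geometric mean within 1e-09, as median-of-ratios scaling gives. The table also holds the authors' log2 fold changes, p-values and adjusted p-values. Per the submitters' processing notes, Bowtie 1.2.2, SAMtools 1.9, DESeq2 and the build TAIR10 were used. Not given in the sources used here are adapter trimming, placement of repeated reads and strand.

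Read numbers per library were solved from the steps of each mean, for 32418 of 32420 loci in dcl4-2 on ABA (all but NIA1 and NIA2) and for all loci elsewhere. In dcl4-2 dcl2-1 on MS, 30 loci allowed several sets, and the most even was taken. The test had been planned for values scaled to a common total. The files hold size-factor-scaled reads, and the same test was kept. Levels were tested with limma 3.58.1 (R 4.3.3), with 1 mean per group over all 18 libraries, on log2(level + 1), over 5695 loci with a level of at least 1 in 3 libraries, two-sided, with a trend in the prior variance and Benjamini-Hochberg adjustment at 0.05. Sums were compared by exact permutation tests (SciPy 1.17.1). The steps were tested on simulated data. Alternatives changed the pseudocount, filter, scaling, variance model and libraries used.

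Genes were annotated from RefSeq TAIR10.1, which matched 31722 locus IDs, and sequences come from it. Coordinates are not printed, since the table's build is TAIR10. Lists and members were chosen with earlier results of these data known, and sequence pairs after their values were seen. Named are the 15 loci of largest change in each direction without overlap between libraries (described where they add to the text), the genes the study turns on, up to 5 called and 3 uncalled members of each list and class, and up to 10 loci that depart between media. DEG14, AT1G32140, AT1G63400's level in Col-0, AT5G22960 and the last 2 of the loci that depart between media were added after values were seen. Values after ± are limma standard errors or, where marked, SDs over libraries, and both hold the spread between libraries. Floors (3 reads over the group) cover counting error only.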

Additional observations from a re-analysis of the deposited data

Results flagged for a closer look

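At 12 loci the difference between dcl4-2 dcl2-1 and dcl4-2 on ABA departed from the same difference on MS, by limma's test of the difference itself with Benjamini-Hochberg adjustment over all loci tested. The values below are the difference on ABA minus that on MS, on the log2 scale. Among protein-coding genes it was -5.09 for AT2G03500 (EFM), -4.63 for AT4G20830, -4.19 for BGLU29 and -4.75 for ADC2. Among MIRNA loci it was -5.32 for MIR156a, -5.59 for MIR156c, -2.76 for MIR166f, -2.76 for MIR166e, -2.75 for MIR166g, -4.92 for MIR167c and -4.36 for MIR779. MIR399a was the only one with a positive value, 2.68. EFM and BGLU29 were tested only through the dcl4-2 ABA libraries, and EFM could not be tested with any one of those left out. ADC2 and MIR779 passed in 4 of 19 and 4 of 17, and MIR167c in 6 of 18. With single compared libraries left out, ADC2, MIR167c and MIR779 each passed 1 time, MIR156c 4 times and MIR399a 5 times.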

How the results depend on the processing

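Scaling, filter and single libraries moved the counts. None of the 350 lower or 6 higher loci changed sign under the scalings tried, which does not cover loci that did not pass. Loci lower on ABA (350) were 73 with no filter on low values, 92 with a mean of at least 3 reads of the shallowest library, 12 with MIRNA sums made equal, 22 with equal totals outside NIA1 and NIA2, 526 with the 6 compared libraries alone, 198 with voom weights, 34 without the shallowest library of each group and 165 in the authors' deposited test. Loci higher (6) were 0, 5, 1, 5, 7, 137, 1 and 15 in the same order, and 13 with no trend in the prior variance. Alternatives chosen after seeing the data gave 1295 lower and 10 higher with chloroplast sums made equal, and 32 lower and 15 higher with MIRNA sums made equal and the read filter. Leaving out single libraries gave 69 to 294 lower and 0 to 9 higher.

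Loci more negative on ABA than on MS (11) were 3 with no filter, 1 with MIRNA sums made equal, 6 with equal totals, 4 with no trend, 2 without the shallowest libraries and, chosen after seeing the data, 6 with MIRNA sums and the read filter and 3 with the least even read numbers. Without single libraries they were 6 to 10. Loci more positive (1) were 4 with MIRNA sums made equal, 4 with equal totals, 3 with voom weights and 8 with MIRNA sums and the read filter, and 0 with a pseudocount of 5, no filter, no trend, no shallowest libraries, chloroplast sums or least even reads. Without single libraries they were 0 to 1. Loci lower than in Col-0 (35) were 14 with no filter, 9 with MIRNA sums, 10 with equal totals, 131 with no trend, 14 without the shallowest libraries, 1 with MIRNA sums and the read filter, and 14 to 32 without single libraries. Loci higher than in Col-0 (0) were 1 with no trend, 1 without the shallowest libraries and 0 to 3 without single libraries. The cause was not tested.

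The ratio of summed levels was 0.491, and 0.908 with MIRNA sums made equal, 0.479 with recomputed ratios, 0.309 with chloroplast sums, and 0.443 to 0.555 without single libraries. No paired analysis was possible because the recovered libraries carry no replicate number. Depth limits low loci most, since 1 read is worth 5.53 in the shallowest library.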

Other observations

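AT5G22960, an alpha/beta-hydrolase gene named here after its values were seen, holds an inverted repeat. Of its 22-mers, 598 (58.7%) also occur in the opposite orientation within the gene. Its 22-nt level was 4.5, 3.89 and 9.67 in dcl4-2 on ABA, and no read was seen in dcl4-2 dcl2-1 (log2 fold change -2.72 ± 0.70, limma adjusted p = 0.0116). Of the 77 protein-coding genes that fell, 1, this gene, held any inverted 22-mer. Among all protein-coding genes tested the share was 0.784%, and 1 gene does not show a different share. AT5G22960 was not among the 12 loci lower under every scaling.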
